A study of Mus musculus with 9 samples.

Results

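The genes described here encode the proteins that let Ca2+ into the cytoplasm of hippocampal cells, release it from internal stores and pump it out again. They comprise 41 genes chosen by name, in 11 classes: pore-forming, alpha2delta, beta and gamma subunits of voltage-gated Ca2+ channels, pumps of the endoplasmic reticulum and Golgi, pumps of the plasma membrane, sodium-calcium exchangers, ryanodine receptors, IP3 receptors, the STIM and Orai proteins that refill the stores, and the mitochondrial uniporter. All 41 were among the 18275 genes of the table and had a mean of at least 10 over the 9 libraries, as did 16196 genes in all. RNA had been sequenced from the hippocampus of adult male C57BL/6N mice, 1 library per animal. The 4 Nestin;BrafKE/+ mice carried 1 floxed Braf allele that encodes an overactive kinase (K499E) once Cre has recombined it. Nestin-Cre recombines the allele in neural stem cells, whose progeny are neurons, astrocytes and oligodendrocytes. The 5 controls were Braf+/+ littermates, and whether they carried Nestin-Cre is not given in the sources used here. The libraries are numbered within each group, 1 to 4 and 1 to 5, and values are listed in that order. Their names carry 4 prefixes, which were grouped here into 3 series. Series A (Nestin;BrafKE/+ replicate 1, Braf+/+ replicates 1 to 3) joins 2 numeric prefixes. Of these, 1 is shared by Braf+/+ replicates 1 and 2, the other by Nestin;BrafKE/+ replicate 1 and Braf+/+ replicate 3. Series B (Nestin;BrafKE/+ replicates 2 and 3, Braf+/+ replicate 4) has the prefix HPC. Series C (Nestin;BrafKE/+ replicate 4, Braf+/+ replicate 5) has the prefix NES.

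Resting cytoplasmic Ca2+ is kept far below that outside the cell, so brief openings of a few channels act as signals. In neurons, entry through voltage-gated channels triggers transmitter release and reaches kinases and transcription factors. In astrocytes, release through IP3 receptors gives most of the slow signals, and SERCA pumps reload the endoplasmic reticulum while STIM and Orai proteins bring in new Ca2+ once it is empty. Plasma membrane pumps and exchangers return the cytoplasm to rest.

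The values had been scaled by the authors, with library totals between 19550000 and 20090000, and the depth behind them is unknown. Braf RNA itself was lower in Nestin;BrafKE/+, by -0.30 as a log2 fold change (adjusted p = 0.0378, limma). This does not test the labels, since the mutation exchanges 1 amino acid. For BRAF protein the study found no significant change in hippocampi of this genotype. Together the 41 genes took 0.595 to 0.620% of a library in Nestin;BrafKE/+ and 0.601 to 0.666% in Braf+/+. In bulk tissue, fewer cells of a type and less RNA per cell cannot be told apart. Marker genes of several cell types also differed between the groups. The level of a marker list in a library was taken as the average of its genes' log2 values after each gene had been centred on 0. It was 0.07 to 0.11 in Nestin;BrafKE/+ against -0.10 to -0.06 in Braf+/+ for 10 astrocyte markers, of which 8 were higher. For 8 oligodendrocyte markers, all higher, it was 0.13 to 0.27 against -0.33 to 0.01. The 4 markers of oligodendrocyte precursors lay at 0.09 to 0.32 against -0.18 to -0.13, with 3 higher, and the 5 of CA1 pyramidal neurons at 0.10 to 0.24 against -0.24 to -0.06, with 5 higher. In the other direction, the 5 markers of CA3 pyramidal neurons lay at -0.32 to -0.16 against -0.01 to 0.35, with 3 lower, and the 6 of dentate granule cells at -0.22 to -0.01 against 0.03 to 0.12, again with 3 lower. The CA3 level was carried by Iyd (log2 fold change -1.23), Coch (-0.58) and Cdh24 (-0.37), while Bok (0.15) and Grik4 (0.09) were above 0. Iyd had a mean signal of 58.5 over the libraries, against 1186 for Bok and 1043 for Grik4. The dentate level was carried by Dsp (log2 fold change -0.78) and Lct (-0.39), with the other 4 dentate markers between -0.05 and 0.07. None of these lists overlapped between the groups, nor did the 7 microglia markers (0.01 to 0.15 against -0.13 to 0.003). Inhibitory neuron, thalamus, endothelial, blood and choroid plexus lists overlapped. Choroid plexus markers stood apart in Braf+/+ replicates 2 and 4, at 3.02 and 2.11, and in Nestin;BrafKE/+ replicate 2, at -2.63. The part of cell composition in the results below was not tested.

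Of the 41 genes, 1 passed the threshold of an adjusted p of 0.05 in limma, the alpha2delta subunit Cacna2d1, which fell. Over all genes tested, 466 of 16196 (2.88%) passed, 220 of them lower (1.36%) and 246 higher (1.52%), so the share of 2.44% among the 41 was near the background. Of the 41, 21 had a log2 fold change above 0 and 20 one below, against 50.1% above 0 over all genes. The median was 0.01 for the 41 and 0.00 for all genes. An unadjusted p under 0.05 was found for 10 of the 41 (24.4%), 3 higher and 7 lower, against 18.5% of all genes (8.86% higher, 9.61% lower). The 3 were Cacna2d2, Cacng4 and Ryr1, and the 7 were Cacna1g, Cacna2d1, Cacnb3, Atp2a2, Atp2c1, Atp2b3 and Orai2, so the exchangers, the IP3 receptors and Mcu had none. The libraries of the groups were fully separate for 2 genes, Cacna2d1 and Atp2c1 (4.88%), where the share over all genes was 15.7%. Within the 3 series, 17 of the 41 (41.5%) kept 1 sign, against 36.6% of all genes.

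The differences were mostly small. The median absolute log2 fold change was 0.09 for the 41 genes and 0.12 for all genes tested, with a median SE of 0.08 against 0.10. For 38 of the 41 (92.7%) the 95% confidence interval lay within 0.5 on the log2 scale of no difference, against 64.1% of all genes. The 3 wider ones belonged to Cacna1g, Cacna2d2 and Ryr1, in each of which 1 bound passed 0.5. The control libraries varied little in these genes, with coefficients of variation from 1.80% for Cacng2 to 18.5% for Atp2b4 and a median of 7.02%, against 8.50% over all genes. These comparisons with all genes were not matched for signal. The lowest mean of the 41 was 100 (Itpr3), whereas genes with means down to 10 were tested.

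**Figure D1:**
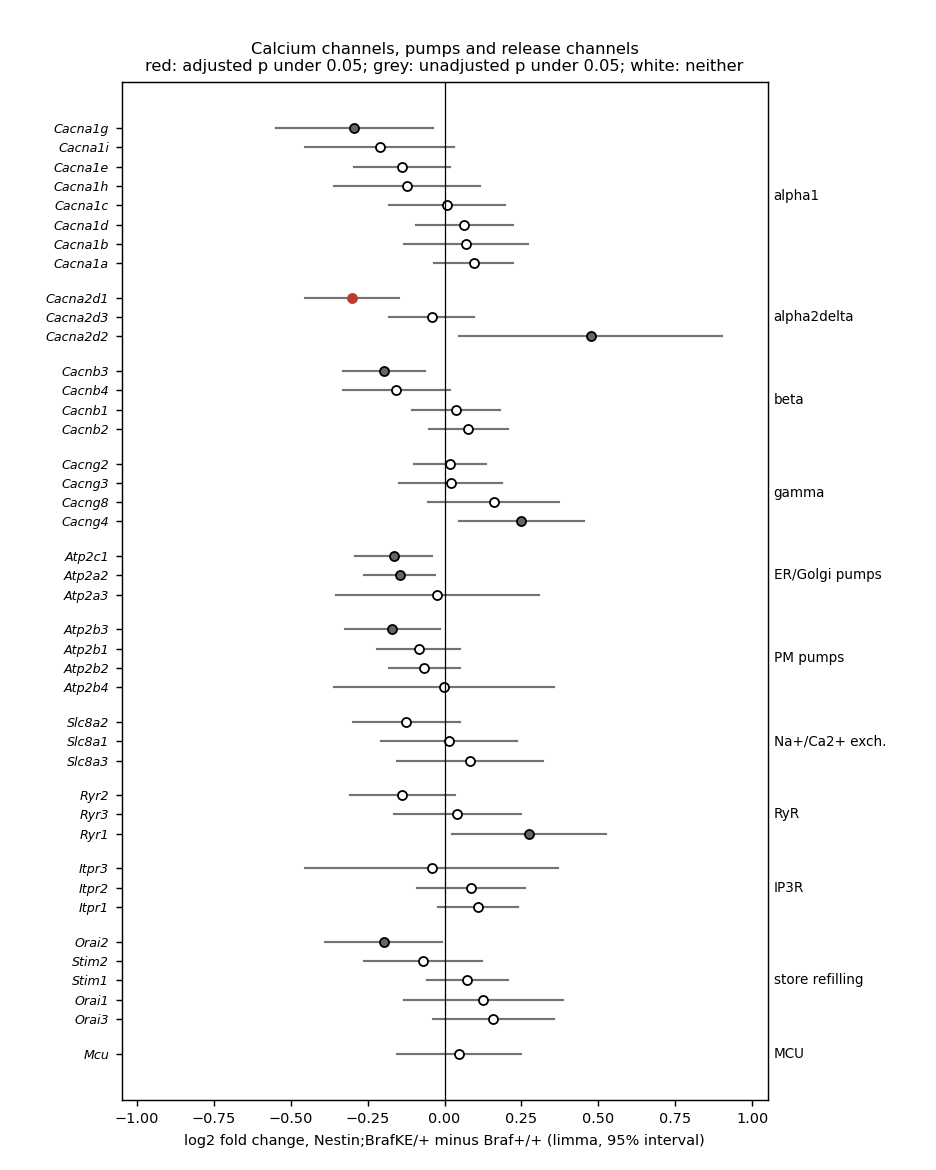
Log2 fold change of the 41 genes between Nestin;BrafKE/+ (n = 4) and Braf+/+ (n = 5), grouped by class, with points from limma and lines for 95% confidence intervals. Cacna2d1 (red) passed the adjusted threshold, the 9 grey points had an unadjusted p under 0.05 alone, and most intervals span 0.

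The alpha2delta subunits sit outside the membrane, carry pore-forming subunits to the cell surface and hold them at presynaptic terminals. Gabapentin binds the products of Cacna2d1 and Cacna2d2. Cacna2d1 (ENSMUSG00000040118, chr5:16139372-16579509 in GRCm39, plus strand) had normalised signals of 3560.0, 3373, 3186 and 3449.8 in Nestin;BrafKE/+. Its signals in Braf+/+ were 4325, 4352, 3671, 4464 and 4103. All 4 mutant libraries lay below all 5 controls, of which replicate 3 was the lowest. The means were 3392 ± 158 (SD, n = 4) in the mutants and 4183 ± 315 (SD, n = 5) in the controls, so that Cacna2d1 fell, with a log2 difference of -0.30 with an SE of 0.07 and an adjusted p of 0.0467 in limma. It was lower in each series, at -0.20, -0.45 and -0.25 on the log2 scale. A two-sided exact permutation test gave p = 0.0159 when labels were exchanged among all 9 libraries and p = 0.0417, the lowest possible, when they were exchanged within series. The call stood close to the threshold. It was lost when the 4 name prefixes replaced the 3 series in the fit, at -0.27 (adjusted p = 0.125, limma). With single libraries left out it was kept in 1 of 9 fits, that without Braf+/+ replicate 3, and was weakest without Braf+/+ replicate 4, where Cacna2d1 stood at -0.22 (adjusted p = 0.25).

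Cacna2d2 (chr9:107276811-107406543, plus strand), whose loss causes epilepsy and ataxia in mice, had signals of 861, 529, 794 and 536 in the mutants. The controls gave 376, 539, 412, 501 and 590.5. Nestin;BrafKE/+ replicates 1 and 3 stood above every control, while replicates 2 and 4 lay among them. The log2 fold change of 0.47 was the highest of the 41 genes but had an SE of 0.19 and did not pass (adjusted p = 0.222). The sign also differed between series, at 0.98, 0.37 and -0.14. Cacna2d3, found in many forebrain neurons, stood at 1823 ± 29.7 (SD, n = 4) and 1880.5 ± 127 (SD, n = 5), a log2 fold change of -0.04 (95% interval -0.18 to 0.10). Per kilobase of exon, the ratio of Cacna2d2 to Cacna2d1 was 0.673, 0.436, 0.693 and 0.432 in Nestin;BrafKE/+ and 0.241, 0.345, 0.312, 0.312 and 0.40 in Braf+/+. All mutant ratios were above all control ratios, those of replicates 1 and 3 by most. This ratio was formed after both genes' values were known, and no test was made.

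The 250 bases upstream of the RefSeq starts of these genes are shown because their log2 differences were the lowest and the highest of the 41 genes. They come from the RefSeq promoter table of build GRCm38.p6 (not the build of the gene positions above), as chr5:15934441-15934690 and chr9:107399630-107399879, both on the plus strand, written 5′ to 3′. Capitals mark matches on either strand to motifs of factors that act downstream of ERK or Ca2+ signals: the EGR1 motif GCGNGGGCG, the ETS core CCGGAA, the AP-1 motif TGANTCA, the CREB site TGACGTCA and its first part TGACG, which lies within the full site.
Cacna2d1: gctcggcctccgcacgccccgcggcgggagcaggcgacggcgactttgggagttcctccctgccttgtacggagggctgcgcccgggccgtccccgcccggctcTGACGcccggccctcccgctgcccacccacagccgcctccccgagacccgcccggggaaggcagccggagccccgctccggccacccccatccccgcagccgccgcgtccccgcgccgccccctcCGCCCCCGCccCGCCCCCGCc
Cacna2d2: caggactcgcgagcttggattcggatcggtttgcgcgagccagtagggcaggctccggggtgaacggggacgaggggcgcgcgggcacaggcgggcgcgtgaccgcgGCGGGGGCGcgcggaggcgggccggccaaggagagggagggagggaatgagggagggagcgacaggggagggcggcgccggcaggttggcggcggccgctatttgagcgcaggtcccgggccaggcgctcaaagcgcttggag
In Cacna2d1 the capitals are 1 TGACG, which starts 146 bases before the transcription start, and 2 EGR1 matches on the minus strand that begin 21 and 10 bases before it. In Cacna2d2 they are 1 EGR1 match on the plus strand, 143 bases before the start. An EGR1 match was present in 4.7% of the 32841 promoters of the table in the same window, and in 8.52% of the 15369 that belong to tested genes. RefSeq promoters were found for 33 of the 41 genes (45 entries), and 7 of those genes held an EGR1 match (15.6% of entries): Atp2b2, Cacna1b, Cacna1c, Cacna2d1, Cacna2d2, Itpr3 and Stim1. Of these 7, Cacna2d1 alone passed the threshold. The ETS core was found in 3 member entries (6.67%, against 19.3% for tested genes), TGACG in 9 (20%, against 24.9%), the AP-1 motif in 1 (2.22%, against 4.52%) and the full CREB site in 0 (against 2.41%). A match is a run of letters and not a measured binding site.

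The pore-forming alpha1 subunits set the type of channel. Cacna1a and Cacna1b encode the P/Q-type and N-type channels of presynaptic terminals, Cacna1c and Cacna1d the L-type channels, Cacna1e the R-type channel, and Cacna1g, Cacna1h and Cacna1i the T-type channels, which open near rest. None of the 8 passed, 4 were above 0 and 4 below, and the median log2 fold change was -0.06. Cacna1g (chr11:94299217-94365230, minus strand), 1 of the calcium genes that the study named from these libraries, had signals of 907, 1089, 1026 and 897 in Nestin;BrafKE/+. Its control signals were 1239, 1048, 1419, 1021 and 1304. Mutant replicates 2 and 3 lay above 1 or more controls, so the groups overlapped, and control replicate 3 was the highest of all. On the log2 scale Cacna1g stood at -0.29 (adjusted p = 0.205, SE 0.12), with -0.43, 0.05 and -0.54 in series A, B and C. The study reported marked changes in calcium genes of these hippocampi, with Cacna1g and Atp2a2 among its examples. It used DESeq2 after a batch adjustment, whereas limma with a series term was used here, where neither gene passed. The series term may repeat the study's adjustment. Without that term Atp2a2 passed, as given below, and Cacna1g did not.

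All 3 T-type genes had log2 fold changes below 0, as had the R-type gene. Cacna1i stood at -0.21 (adjusted p = 0.336) and was lower in each series, Cacna1h at -0.12 (adjusted p = 0.59), with 0.27 in series B, and Cacna1e at -0.14 (adjusted p = 0.329). The P/Q-type, N-type and L-type genes lay between 0.01 for Cacna1c and 0.09 for Cacna1a. Their 95% intervals ran from -0.18 to 0.20 for Cacna1c, -0.09 to 0.22 for Cacna1d, -0.13 to 0.27 for Cacna1b and -0.03 to 0.22 for Cacna1a. Without Nestin;BrafKE/+ replicate 1 the log2 fold change of Cacna1h was 0.06, so its direction rested on that library.

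The beta subunits bind alpha1 inside the cell and bring it to the membrane. Cacnb3 (chr15:98528721-98542417, plus strand) had signals of 2973, 3463, 3174 and 3194 in Nestin;BrafKE/+. In Braf+/+ they were 3666, 3811, 3770.2, 3406 and 3667. Only mutant replicate 2 reached into the control range, above control replicate 4 of the same series. Its log2 fold change was -0.20 (SE 0.06), with an unadjusted p of 0.00819, an adjusted p of 0.12 and an exact permutation p of 0.0238 over all libraries and 0.0833 within series. It was below 0 in each series, at -0.33, -0.04 and -0.20. It did not pass here. Dropping the series from the fit gave an adjusted p of 0.0211, in a fit that called 14% of all genes. Cacnb4, which is mutated in lethargic mice, stood at -0.16 (adjusted p = 0.326), Cacnb1 at 0.04 and Cacnb2 at 0.08.

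Of the gamma family, Cacng2, Cacng3, Cacng4 and Cacng8 encode TARPs, which carry AMPA receptors to synapses and shape their currents, and TARP gamma-8 is abundant in hippocampal pyramidal cells. All 4 had log2 fold changes above 0 and none passed, and that of Cacng3 turned when some libraries were left out (lowest -0.072). Cacng4 (chr11:107623183-107685662, minus strand), also found in glia, had signals of 612, 506, 653 and 550.4 in the mutants. Its controls were 481, 487, 459.9, 491 and 510.4. Mutant replicate 2 fell within the narrow control range and the other 3 lay above it. The log2 fold change was 0.25 (adjusted p = 0.18, SE 0.09), above 0 in each series at 0.36, 0.23 and 0.11, with p = 0.0417 in the exact permutation test within series. Astrocyte and oligodendrocyte precursor markers were higher in the mutant group, as given above. Among the mutants, replicate 3 had the highest astrocyte level (0.11) and the lowest precursor level (0.09). Replicate 2 had the lowest astrocyte level (0.07) and the highest precursor level (0.32). The part of these markers in the result for Cacng4 was not tested. Cacng8 stood at 0.16 (adjusted p = 0.419), Cacng3 at 0.02 and Cacng2 at 0.02, the last with signals of 1086 to 1114 in the mutants and 1063 to 1114 in the controls.

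**Figure D2:**
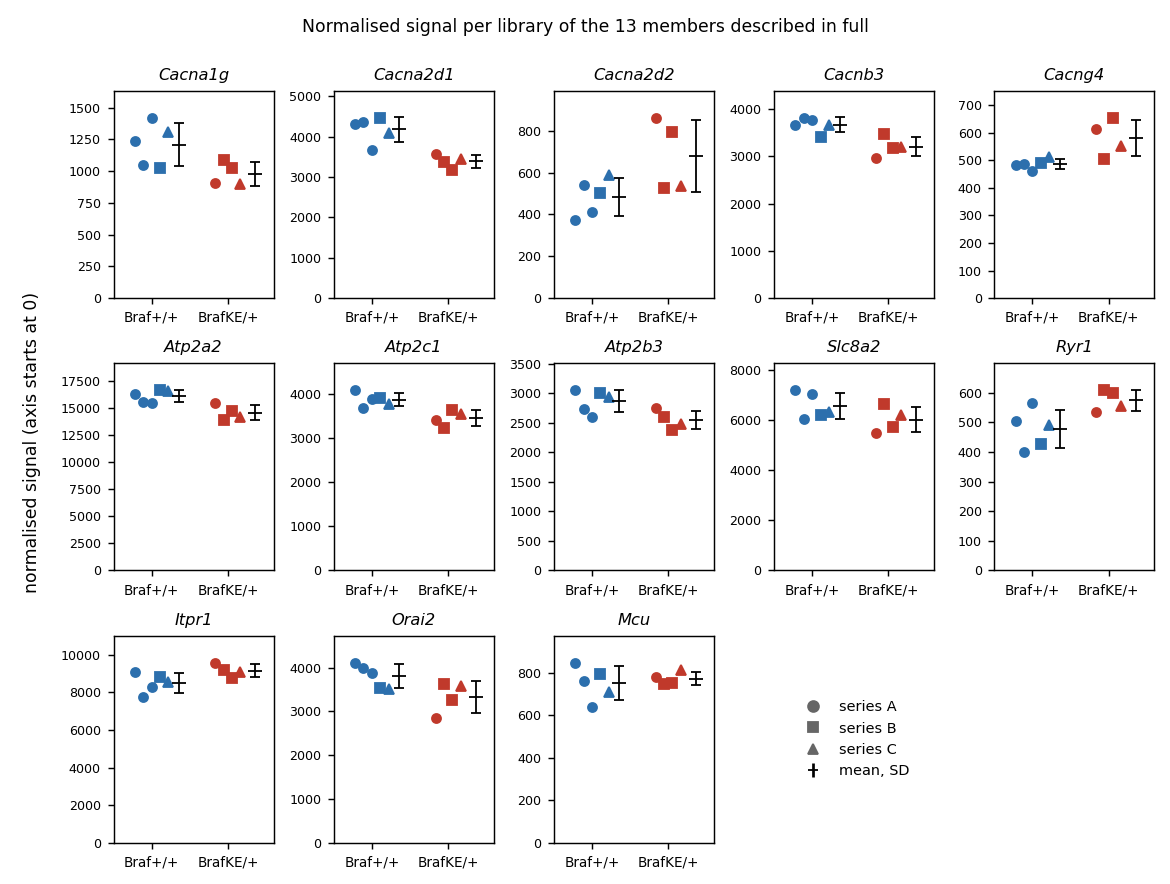
Normalised signal of the 13 genes described library by library, with Braf+/+ (n = 5) in blue, Nestin;BrafKE/+ (n = 4) in red, marker shapes for the 3 series and black bars for the mean and SD. Mutant and control points separate fully for Cacna2d1 and Atp2c1 and overlap for the other 11, and the 4 mutant values of Cacna2d2 form a high and a low pair.

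The 3 pumps that fill internal stores all had log2 fold changes below 0, and none passed. Atp2a2 (chr5:122591575-122640903, minus strand) encodes SERCA2, the main Ca2+ pump of the endoplasmic reticulum in brain, and is another of the genes the study named. Signals in Nestin;BrafKE/+ were 15429, 13885, 14722 and 14153. Those in Braf+/+ were 16265, 15571, 15428, 16628 and 16523. The highest mutant library, replicate 1, lay just above the lowest control, replicate 3, and the rest of the mutants were below every control. The log2 fold change was -0.15 (SE 0.05, 95% interval -0.26 to -0.03), and with an adjusted p of 0.166 it did not pass. Within series it stood at -0.03, -0.22 and -0.22. Dropping the series from the limma fit gave Atp2a2 an adjusted p of 0.0315, in a fit that called 14% of all genes. Atp2c1 (chr9:105280738-105404518, minus strand), the Ca2+ and manganese pump of the Golgi, gave 3410.4, 3237, 3654 and 3549 in the mutants. The controls gave 4095, 3698, 3907, 3929 and 3784. No mutant library reached the lowest control, replicate 2. The exact permutation test gave p = 0.00794 over all libraries, the smallest it can give, and p = 0.0833 within series. Neither was adjusted for the number of genes, and the groups were fully separate in 15.7% of all genes tested. In limma the log2 fold change of -0.17 (SE 0.06) had an adjusted p of 0.15. Atp2a3, the SERCA pump of blood cells, endothelium and Purkinje cells, was low in hippocampus, with signals of 152 to 191 against 143 to 212 and a log2 fold change of -0.02 whose sign changed when single libraries were left out.

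Of the 4 plasma membrane pumps, which remove Ca2+ from the cell, none passed and all 4 log2 fold changes were below 0. That of Atp2b4 was -0.0012 and turned to 0.00085 with TMM scaling. Atp2b3 (chrX:72546384-72614614, plus strand), a neuronal form, had mutant signals of 2749, 2593, 2381 and 2482. The control signals were 3053, 2736, 2603, 3013 and 2942. Mutant replicate 1 lay above control replicates 2 and 3, and mutant replicate 2 was just below control replicate 3. Atp2b3 thus stood at -0.17 on the log2 scale (adjusted p = 0.225, SE 0.07), of which little came from series A (-0.02) and more from B (-0.28) and C (-0.25). Atp2b1 stood at -0.08 (95% interval -0.22 to 0.05) and Atp2b2, a form with fast kinetics, at -0.07 (95% interval -0.18 to 0.05), and both were below 0 in each series.

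The sodium-calcium exchangers use the sodium gradient to remove Ca2+ after large rises. Slc8a2 (chr7:15863726-15894988, plus strand), the form mostly confined to brain, had signals of 5493, 6647, 5748 and 6224 in the mutants. Its control signals were 7205, 6039, 7062, 6203 and 6334. The groups overlapped widely, and the log2 fold change of -0.12 (adjusted p = 0.443, SE 0.08) came from series A (-0.30). Slc8a1 stood at 0.02 (95% interval -0.21 to 0.24) with differences of 0.31 in series A and -0.40 in series C, and Slc8a3 at 0.08 (95% interval -0.16 to 0.32).

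Ryanodine receptors release stored Ca2+ in response to Ca2+ itself. Ryr2 is the usual form in hippocampal neurons and Ryr1 that of skeletal muscle. Ryr1 (chr7:28702769-28824604, minus strand) had signals of 533, 608, 600.0 and 555 in Nestin;BrafKE/+. Controls gave 505, 401, 564, 427 and 489. Mutant replicates 1 and 4 lay below the highest control, replicate 3, and above the other 4. Its log2 fold change of 0.27 (SE 0.11) had an unadjusted p of 0.0339 and an adjusted p of 0.226, with 0.14, 0.50 and 0.18 in series A, B and C. Ryr2 stood at -0.14 (adjusted p = 0.385) and Ryr3 at 0.04 (adjusted p = 0.854). The 95% interval of Ryr2 ran from -0.31 to 0.03, below that of Ryr1 except for a small overlap.

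IP3 receptors open when receptors coupled to phospholipase C produce IP3. Itpr1 is the neuronal form and Itpr2 the form on which astrocyte Ca2+ signals mainly depend. Itpr1 (chr6:108190048-108528070, plus strand) had mutant signals of 9591, 9178, 8769.5 and 9101. Those of the controls were 9105, 7745, 8268, 8848 and 8547. The highest value was that of mutant replicate 1 and the lowest that of control replicate 2, with overlap in between. Its log2 fold change was 0.11 (adjusted p = 0.37, SE 0.06). Itpr2 had signals of 524 to 563 in Nestin;BrafKE/+ and 485 to 566 in Braf+/+, a log2 fold change of 0.09 (95% interval -0.09 to 0.26, adjusted p = 0.607). The 10 astrocyte markers had a median log2 fold change of 0.19, which lies inside that interval, and their part in the value of Itpr2 was not tested. Itpr3, the lowest of the 41 genes per exon length, stood at -0.04 (95% interval -0.45 to 0.37), and its sign differed between series.

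STIM proteins sense the Ca2+ content of the endoplasmic reticulum and open Orai channels in the plasma membrane when it falls. None of the 5 genes passed. Orai2 (chr5:136176310-136200044, minus strand), the most abundant Orai in brain, had signals of 2855, 3621, 3259 and 3586 in the mutants. In the controls they were 4116, 3991, 3883, 3546 and 3519. Mutant replicates 2 and 4 lay among the controls and replicate 1 was the lowest. The log2 fold change of -0.20 (adjusted p = 0.25, SE 0.09) came from series A (-0.48), where series B gave -0.05 and series C 0.03. Orai1 and Orai3 stood at 0.13 (adjusted p = 0.611) and 0.16 (adjusted p = 0.386), above 0 in each series, so the Orai genes differed in sign. Stim1 stood at 0.07 (95% interval -0.06 to 0.21). Stim2, which also acts at rest, stood at -0.07 (95% interval -0.26 to 0.12).

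Mcu (chr10:59282806-59452522, minus strand) encodes the pore through which mitochondria take up Ca2+. Mutant signals were 780.1, 747, 754 and 812, a narrow range inside that of the controls. The controls were 849, 761, 640.1, 793 and 712. Its log2 fold change was 0.05 (adjusted p = 0.826, SE 0.09).

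**Figure D3:**
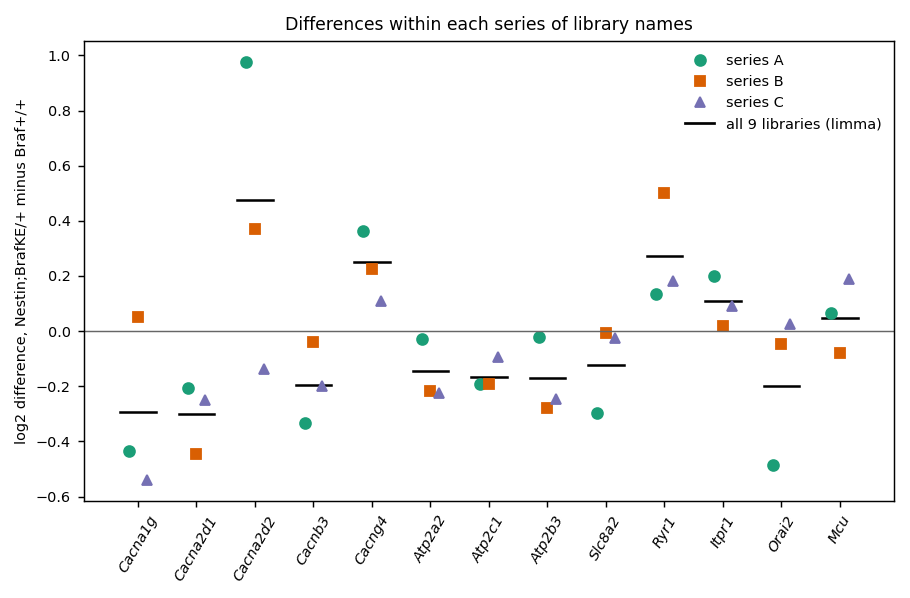
Log2 difference between Nestin;BrafKE/+ and Braf+/+ within series A, B and C (symbols) and over all 9 libraries (black lines, limma) for the 13 genes described library by library. The 3 symbols lie on 1 side of 0 for Cacna2d1, Cacnb3, Cacng4, Atp2a2, Atp2c1, Atp2b3, Slc8a2, Ryr1 and Itpr1, and on both sides for Cacna1g, Cacna2d2, Orai2 and Mcu.

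Levels of different genes were compared per kilobase of annotated exon. Atp2a2 was the highest of the 41 genes in Braf+/+, at 1314 ± 45.0 per kb (SD, n = 5), and was followed by the plasma membrane pump Atp2b1 at 1103 ± 69.8 and the exchanger Slc8a2 at 1061 ± 85.3. The ranges of the last 2 overlapped. Among beta subunits Cacnb3 led at 726 ± 31.3 per kb, above Cacnb1 at 363 ± 22.2, Cacnb4 at 306 ± 22.5 and Cacnb2 at 82.3 ± 3.92, and none of these neighbours overlapped. The leading TARP was Cacng8 at 642 ± 69.6 per kb. Of the IP3 receptors Itpr1 stood at 464 ± 28.8, Itpr2 at 31.7 ± 2.19 and Itpr3 at 8.49 ± 1.52 per kb, and of the ryanodine receptors Ryr2 at 137 ± 10.6, Ryr3 at 78.0 ± 7.41 and Ryr1 at 21.9 ± 2.97. Ryr1 was thus the lowest of its family in the tissue.

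The alpha1 subunits lay closer together. Cacna1h, Cacna1e and Cacna1b stood at 217 ± 24.3, 216 ± 12.3 and 204 ± 22.1 per kb in Braf+/+ with overlapping ranges, and Cacna1d was the lowest at 59.3 ± 4.04. Within 9 of the 11 classes the order of the genes was the same in both groups, though 1 of the 9 holds Mcu alone and has no order to change. In the alpha1 class the positions of several genes changed among neighbours whose ranges overlapped. In the alpha2delta class, Cacna2d1 and Cacna2d3 overlapped in Braf+/+, at 189 ± 14.2 and 185 ± 12.5 per kb, while in Nestin;BrafKE/+ Cacna2d1 lay below Cacna2d3 in all libraries, at 154 ± 7.13 and 179.7 ± 2.93 (SD, n = 4).

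**Figure D4:**
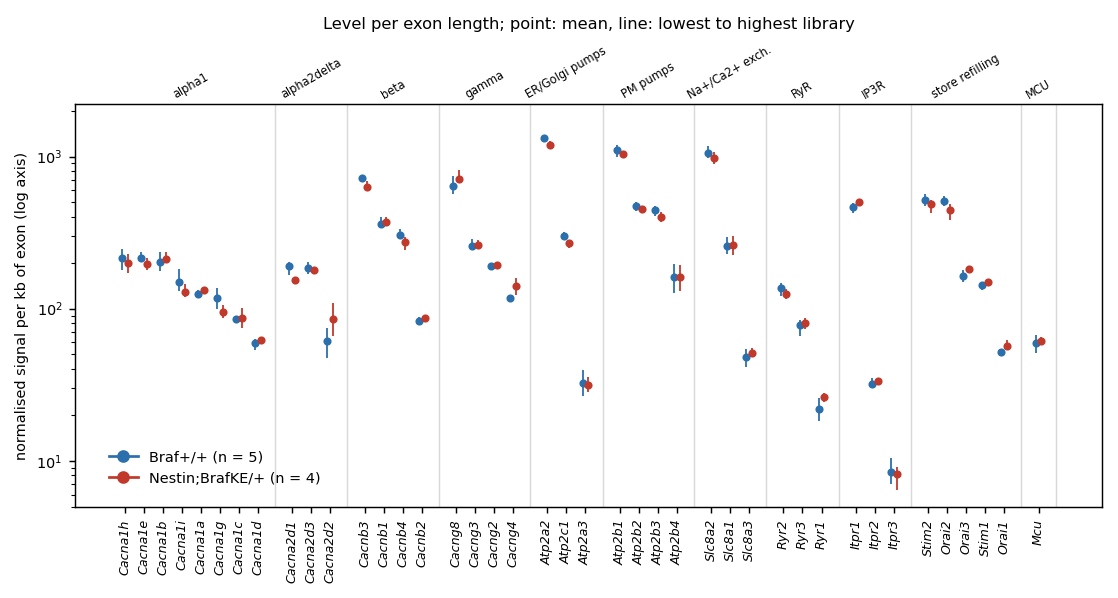
Normalised signal per kilobase of annotated exon (log axis) of the 41 genes by class, ordered within each class by the Braf+/+ mean. Points are means and lines run from the lowest to the highest library. The first and last genes of each class with several genes differ by far more than the genotypes do. The lines of the genotypes are fully separate for Cacna2d1 and Atp2c1 alone.

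Genes that buffer, sense or transmit Ca2+ signals were read from 6 further lists with 112 genes, of which 107 were tested. Of these, 16 passed (15%), 8 higher and 8 lower, where 2.88% of all genes did. The lists were drawn up with earlier results of these libraries known, so the share is a description. Without Nestin;BrafKE/+ replicate 1, 1 listed gene passed, in a fit that called 0.259% of all genes, and without Braf+/+ replicate 4, 3 passed, where 0.598% of all genes did. With each library left out in turn, the log2 fold change of Kcnip1 stayed between 0.77 and 0.88 and that of Camk1g between 0.39 and 0.44.

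Buffers and sensors held 8 of the 16, from 23 genes tested. The KChIPs are Ca2+-binding subunits of A-type potassium channels, and all 4 of their genes passed. Kcnip1 rose by 0.83 on the log2 scale (adjusted p = 0.00177, SE 0.09). Its signals were 616, 545, 639.9 and 560.3 in Nestin;BrafKE/+ and 318, 314, 347, 329 and 348 in Braf+/+, so each mutant library exceeded the highest control by more than the controls' own range. Kcnip3, whose product also represses transcription as DREAM, rose by 0.49 (adjusted p = 0.00565) and Kcnip2 by 0.25 (adjusted p = 0.0497), while Kcnip4 fell (-0.41, adjusted p = 0.0073). Calb1, the buffer calbindin of dentate granule and CA1 cells, rose from a range of 2276 to 2713 in the controls to one of 3238 to 3912 in the mutants (log2 fold change 0.43, adjusted p = 0.0178). The CA1 marker list was higher in the same libraries, and of the dentate markers only Dsp and Lct differed by more than 0.1 in log2 fold change, both lower. Their part in this result was not tested. Necab3 (log2 fold change -0.63, adjusted p = 0.0148), which encodes a neuronal Ca2+-binding protein, and Hpcal1 (-0.31, adjusted p = 0.0401), a relative of hippocalcin, fell. Neither Kcnip2 nor Hpcal1 passed once any single library was dropped, with adjusted p-values from 0.0661 to 0.25 for Kcnip2 and from 0.054 to 0.196 for Hpcal1 (limma).

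Among Ca2+-dependent kinases and phosphatases 3 of 21 passed. Camkk1, which encodes an upstream kinase, fell from a range of 3594 to 4255 in the controls to one of 2699 to 3372 in the mutants (log2 fold change -0.37, adjusted p = 0.0398). Of its targets, Camk1d fell (log2 fold change -0.33, adjusted p = 0.0466) and Camk1g rose (0.41, adjusted p = 0.0148). With single libraries left out, Camkk1 passed in 1 of 9 fits, Camk1d in 3 and Camk1g in 7. Camk2a, the abundant kinase of excitatory synapses, stood at 0.07 (adjusted p = 0.711) and Camk2b at -0.16 (adjusted p = 0.2).

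The other 4 lists held 1 or 2 genes each past the threshold. Of 18 genes for making and clearing IP3, Itpka, a kinase of dendritic spines that phosphorylates IP3, rose from a range of 3777 to 4162 in the controls to one of 4714 to 5237 in the mutants (log2 fold change 0.31, adjusted p = 0.0176). Of 24 regulators of the stores, Ahcyl2, a relative of the IP3 receptor binding protein IRBIT, fell from a range of 4669 to 6748 in the controls to one of 3663 to 4223 in the mutants (log2 fold change -0.51, adjusted p = 0.0302). Of 10 further mitochondrial genes, Mcub rose, with signals of 156, 134, 135 and 112 in the mutants against 73.5, 48.0, 55.8, 60.3 and 73.1 in the controls and a log2 fold change of 1.11 (adjusted p = 0.0147, SE 0.19). Mcub encodes a relative of Mcu that lowers the conductance of the uniporter. Of 11 further channel, pump and exchanger genes tested, Slc24a4, a potassium-dependent sodium-calcium exchanger, fell from a range of 465 to 502 in the controls to one of 327 to 355 in the mutants (log2 fold change -0.53, adjusted p = 0.00617). In the same list Cacna2d4, the alpha2delta subunit best known from retina, rose from a range of 11.9 to 37.0 in the controls to one of 53.6 to 72.9 in the mutants (log2 fold change 1.41, SE 0.32, adjusted p = 0.0439), a large ratio at a low signal that the added 1 understates. With single libraries left out, Cacna2d4 passed in 2 of 9 fits, Ahcyl2 in 4, Itpka and Mcub in 7 each, and Slc24a4 in 8.

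**Figure D5:**
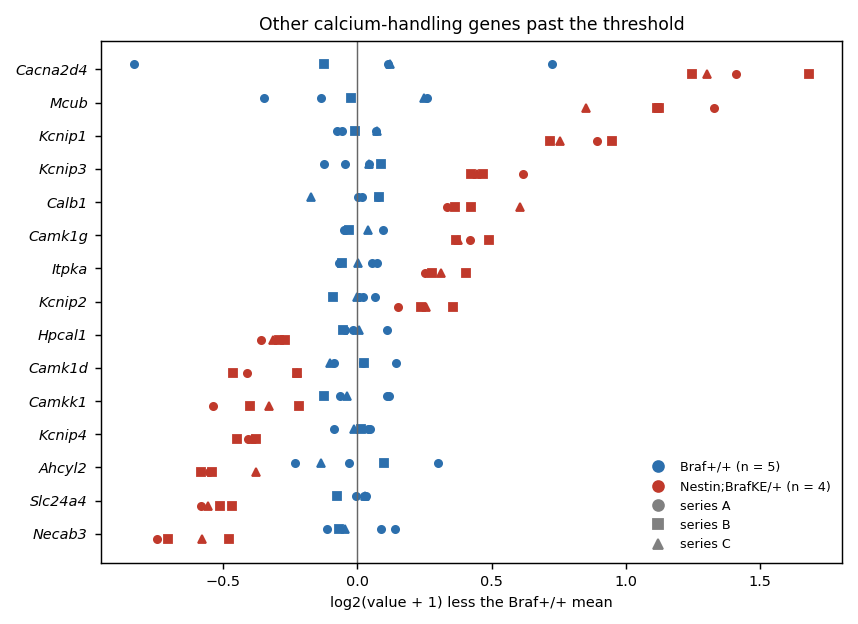
Values in every library of 15 other calcium-handling genes past the threshold, as log2(value + 1) less the Braf+/+ mean, with Braf+/+ (n = 5) in blue, Nestin;BrafKE/+ (n = 4) in red and marker shapes for the series. In each row the red and blue points are separate, with Cacna2d4 and Mcub farthest to the right and Necab3 farthest to the left.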

How the data were processed

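The authors trimmed reads with Trim Galore, aligned them to GRCm39 with STAR, quantified genes with Salmon, adjusted for batches and scaled the values with DESeq2. They deposited a signal, the normalised value of each gene in each library, in 1 table. All values of a library (100%) could be written as whole multiples of a step (tolerance 0.1 of a step). Since batches had been adjusted for, and mt-Co1 had the same whole number of steps (491938) in all 9 libraries, these were not taken as sequenced reads. No count model was used. Errors reflect the spread between libraries left after genotype and series were fitted. The authors' batches are not named, so the series term may repeat an adjustment already made to the values.

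All 9 libraries were used, grouped by the labels. Genes with a mean of at least 10 were fitted on log2(value + 1) by genotype and series in limma 3.58.1 (R 4.3.3, eBayes with a mean trend). P-values were two-sided and adjusted by Benjamini-Hochberg across the genes tested, and the threshold was 0.05. Fold changes are on the log2(value + 1) scale. Members described in full were also tested by exact permutation of the labels, among all libraries (smallest p possible 0.00794) and within series (24 arrangements, smallest p 0.0417). These p-values were not adjusted. For members other than Cacna2d1, Cacnb3, Cacng4 and Atp2c1 they ran from 0.0159 (Atp2a2) to 0.611 (Mcu) among all libraries. Within series they ran from 0.0833 (Atp2a2) to 0.583 (Mcu). The steps were tested on simulated data.

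The 41 genes and the other lists were chosen with earlier results of these data known. Each of the 41 is named, and values in every library are given for genes past the threshold, for Cacna1g and Atp2a2, and for the largest absolute log2 fold change in each class. From the further lists, genes past the threshold are named, except 1 that is not reported here, together with Camk2a and Camk2b, which were picked after their values had been seen. Of 112 further listed genes, Cacng1, Atp2a1, Slc24a1 and Rcvrn were not analysed here, and Cacna1f was under the minimum.

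Positions and exon lengths came from Gencode vM39 on GRCm39, where all 41 IDs were found. Lengths are the union of all annotated exons, which need not be the transcripts used in hippocampus. Exons of Atp2b4, Cacng8 and Itpr3 overlap a microRNA gene on the same strand. Promoters came from RefSeq (GRCm38.p6). Cacna1a, Cacna1g, Cacna1h, Cacng4, Atp2a2, Atp2b3, Ryr3 and Itpr1 had no entry. Alternatives were other pseudocounts, filters and scalings, other terms for the series, robust eBayes, array quality weights and leaving out each library. Figures were drawn with matplotlib 3.10.9.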

Additional observations from a re-analysis of the deposited data

Results flagged for a closer look

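In 1 of 114 groups of values (the 41 genes and the 16 listed genes past the threshold, in each genotype), 1 library stood apart from the rest of its group. Stim2 had a signal of 2200 in Nestin;BrafKE/+ replicate 3, where the other 3 mutants lay between 2627 and 2697. Chance alone would mark about 1 group in 20.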

How the results depend on the processing

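Of the 41 genes, 1 passed under both other pseudocounts, both other filters, TMM factors, quantile normalisation and robust eBayes. The count was 5 without the series term (Cacna2d1, Cacnb3, Cacng4, Atp2a2 and Atp2c1), 0 with 4 name prefixes and 0 with array quality weights, in fits that called 14%, 1.02% and 1.59% of all genes. It ran from 0 to 1 when each library was left out in turn. Of the other listed genes, 31 passed without the series term, 8 with 4 name prefixes and 10 with array quality weights, and 1 to 14 when each library was left out. Leaving out Nestin;BrafKE/+ replicate 1 gave 1 (0.259% of all genes) and Braf+/+ replicate 4 gave 3 (0.598%). The number of the 41 genes above 0 stayed between 19 and 22.

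With the replicate number as a replicate block (replicates 1 to 4 of each group), 3 of the 41 genes passed (Cacna2d1, Cacnb3 with an adjusted p of 0.0441, and Atp2c1 with 0.0423) and 27 other listed genes, against 8.63% of all genes. The deviations of same-numbered libraries from their group means had correlations of -0.39, -0.08, 0.07 and 0.42. Values of both signs cannot decide whether libraries with the same number were paired.

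The sign of 12 of the 41 genes turned under some setting, and none of these had an adjusted p under 0.05 in either direction. The log2 fold change of Atp2b4 was 0.00085 with TMM factors, 0.018 with 4 name prefixes, 0.029 with the replicate block and 0.039 with array quality weights. That of Cacna1c was -0.025 with array quality weights, and with 4 name prefixes Slc8a1 stood at -0.030 and Itpr3 at 0.117. With each library left out, the lowest and highest values were -0.060 and 0.068 for Cacna1c, -0.33 and 0.059 for Cacna1h, -0.012 and 0.091 for Cacnb1, -0.072 and 0.146 for Cacng3, -0.083 and 0.105 for Atp2a3, -0.235 and 0.122 for Atp2b4, -0.174 and 0.161 for Slc8a1, -0.021 and 0.136 for Slc8a3, -0.143 and 0.135 for Ryr3, -0.242 and 0.243 for Itpr3, -0.129 and 0.025 for Stim2, and -0.0027 and 0.116 for Mcu. The cause was not tested. Tests on counts with edgeR and DESeq2 were not run, since the deposited whole numbers were not taken as sequenced reads. The depth behind each value is unknown.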
